A study of Mus musculus with 4 samples.

Results

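The homeobox family of transcription factors and related regulators of regional identity was examined in the neocortex of mouse embryos. It was defined by gene name, as the probes with a single gene symbol of the Hoxa to Hoxd, Lhx, Pax, Dlx, Emx, Otx, Nkx, Msx, Pou, Meis, Pbx, Irx, Pitx, Gsx, Gbx, Alx, Cdx and Hhex families or of En1, En2, Isl1, Sim1, Sim2, Six2, Six3, Six4, Six5 and Six6, and with a value on 3 or more arrays. Lhx6, Emx1, Msx1, Pou3f2 and Pou3f3 were left out by the definition. These criteria gave 82 probes of 81 genes, among 6856 probes in all. Of 98 probes with a fitting name, 16 had no value on any array, among them those of Emx2, Dlx6 and Gbx2. Hoxa3, Hoxc5 and Cdx4 were kept with a value on exactly 3 arrays, and the other 79 probes had values on 4. The name "homeobox" does not cover every member. Sim1 and Sim2 are bHLH-PAS factors, several Pax proteins carry a paired domain without a complete homeodomain, and Dlx6os2 and Hoxa11os are antisense transcripts.

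Each of 4 two-colour arrays compared RNA of a null mutant embryo sample with RNA of a control pool, both on a C57BL/6 background and from the neocortex at embryonic day 16. The labels describe the mutants as synaptically silent, and the series title names gene expression regulated by synaptic activity as the question. The 4 null samples were biological replicates, while a single pool of 4 control replicates served all arrays and therefore counts as 1 control sample. Null RNA was labelled with Cy5 on replicates 2, 3 and 4 and with Cy3 on replicate 1, whose source name gives day 14 where its other labels give day 16.

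Homeodomain factors bind DNA and set the identity of cells by position. In the forebrain, Pax6, Emx and Lhx2 pattern the cortex, Dlx and Gsx factors specify the ganglionic eminences that supply interneurons, and Sim1, Otx2 and Nkx factors act in the diencephalon and basal forebrain. Hox genes lie in 4 clusters, are used in order along the hindbrain, spinal cord and trunk, and are in general not used in the developing neocortex. Pbx and Meis proteins, of the TALE class, bind DNA together with Hox proteins.

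The values were log2 ratios of both channels of an array, as deposited. No source states which channel is the numerator, and the sign of a value therefore does not say whether null mutants or controls had more RNA. Replicates 2 to 4 ran the same way and carried the comparison, and replicate 1 is set beside them unturned. Between 5777 and 5873 probes had a value on each array, with a median between -0.031 and 0.0044 and an SD over probes between 0.40 and 0.63. Replicate 3 had the widest spread. Over all probes, Pearson's r between arrays ran from -0.10 to 0.23, a description across probes that share a pool. A ratio holds no level, so whether a member was expressed in the tissue could not be checked, and neither could the labelled tissue. In such bulk samples fewer cells of a type and less RNA per cell cannot be told apart.

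No member passed the adjusted threshold. Of the 79 members with values on replicates 2, 3 and 4, 0 had an adjusted p under 0.05 with limma, against 0% of the 5720 probes tested. The smallest adjusted p of a member was 0.473. At an unadjusted p under 0.05 stood 5 members, or 6.33%, against 9.67% of all probes tested. Of the 5, 4 were below 0, where all probes had 4.06%, and 1 was above 0, where all probes had 5.61%. Without replicate 2 the count was 1 of 79, or 1.27% against 4.09% of all probes, and without replicate 3 it was 8 of 82, or 9.76% against 9.5%. For the median member the 95% interval of the mean extended by 0.42 in each direction, which is 1.34-fold.

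Adding replicate 1 gave different genes for each assumed sign of that array. With replicate 1 turned, 6 of 79 members, or 7.59%, had an unadjusted p under 0.05, against 8.44% of 5687 probes. These were Hoxa2, Hoxc8, Meis1, Sim2, Nkx6-2 and a probe of Pou2f2. With replicate 1 as deposited, Pou2f3 and Sim1 were the 2 members at such a p, or 2.53%, against 7.12% of probes. No member had an adjusted p under 0.05 in either fit of limma, where the share of all probes was 0% for the turned array and 0.0352% for the unturned one.

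The means of members over replicates 2 to 4 ran from -0.61, for Sim1, to 0.72, for Hoxc8. The family's median was -0.086 against -0.016 over all probes tested, and 50 of 79 means, or 63.3%, were negative against 52.6% of all probes. A single sign on all 3 arrays was held by 22 members, or 27.8%, against 33.5% of all probes. Of these, 18 members were negative on all 3 arrays, or 22.8% against 17.3% of all probes. The other 4 of the 79 were positive on all 3, a pattern that 16.3% of all probes had. A mean beyond 0.5 in size belonged to 7 members, and 8.72% of all probes had such a mean. The family thus held no larger share of probes with an unadjusted p under 0.05, or with a single sign of either direction, than the table as a whole. By direction, its share was larger for negative and smaller for positive values on all 3 arrays.

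**Figure D1:**
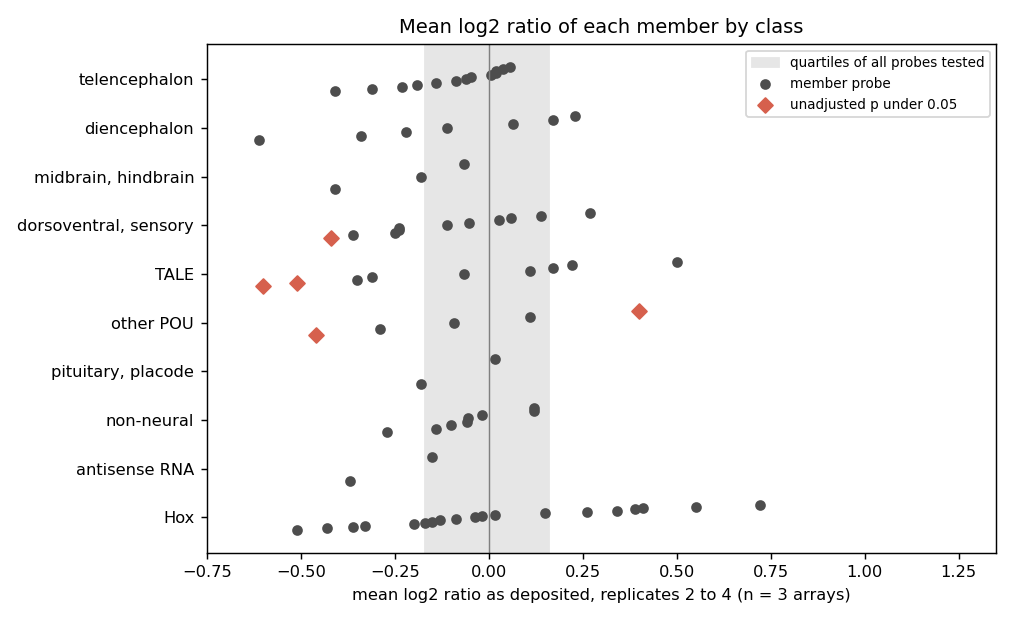
Mean log2 ratio over replicates 2 to 4 (x axis, n = 3 arrays) of the 79 members tested, a point per probe, grouped by the single region or class assigned to each member (y axis). Diamonds mark the 5 members at an unadjusted p under 0.05, and the grey band spans the quartiles of all 5720 probes, from -0.17 to 0.16.

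The forebrain factors comprised 20 measured genes, 13 of the telencephalon and 7 of the diencephalon and eye. None reached an unadjusted p under 0.05 in limma, against 9.67% of all probes tested. Of the means, 12 of 20, or 60%, were negative against 52.6% of all probes, and their median was -0.074 against -0.016. The median of the 13 telencephalic genes was -0.06 and that of the 7 diencephalic genes -0.11. In the sentences below the values of replicates 2, 3 and 4 come in that order, followed by replicate 1.

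Factors of the cortical primordium had means close to 0. Pax6, which is required in cortical radial glia, had log2 ratios of 0.082, -0.11 and -0.12, and 0.076 on replicate 1. The interval of its mean ran from -0.40 to 0.30. Lhx2, a LIM homeodomain factor needed for cortical fate, had 0.17, -0.23 and 0.12, and -0.75 on replicate 1. Otx1, of the head-gap orthodenticle family and active in deep-layer cortical neurons, had 0.25, -0.084 and -0.10, and -0.41 on replicate 1. None of these 3 genes kept a single sign on replicates 2 to 4. Lhx5, a LIM factor of the cortical hem and the source of Cajal-Retzius cells, was negative on all 3 at -0.071, -0.31 and -0.043, and positive on replicate 1 at 0.12. Pou3f1, a POU factor of cortical neurons also known as Oct6, had 0.063, 0.06 and -0.39, and -0.072 on replicate 1. Six3, which specifies the anterior forebrain, had -0.14, 0.11 and 0.14, and -1.01 on replicate 1. Replicate 1 gave the value largest in size for Lhx2, Otx1 and Six3.

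Among factors of the ganglionic eminences the SD over replicates 2 to 4 ran from 0.082, for Dlx1, to 0.50, for Dlx5. Dlx1, an early gene of interneuron progenitors, had 0.019, -0.082 and 0.08, and 0.35 on replicate 1. Its neighbour and partner in interneuron specification, Dlx2, had 0.086, -0.73 and -0.049, and -0.11 on replicate 1. Dlx5, a target of both in migrating interneurons, had 0.26, -0.73 and -0.10, and 0.50 on replicate 1. Replicate 3 was the lowest of the 4 arrays for both Dlx2 and Dlx5, and without it the means of both turned positive. The antisense transcript Dlx6os2, from the Dlx5 and Dlx6 locus, likewise had its single low value on replicate 3, at 0.011, -1.05 and -0.053, and -0.046 on replicate 1. Gsx1, which acts in eminence progenitors, was negative on every array at -0.74, -0.26 and -0.23, and -0.12 on replicate 1. Its mean of -0.41 ± 0.29 (SD, n = 3) had an unadjusted p of 0.0533 and an adjusted p of 0.522 in limma, the smallest p of the forebrain factors. Nkx2-1, the selector of the medial eminence and of the hypothalamus, had -0.77, 0.051 and -0.23, and 0.14 on replicate 1. Lhx8, its downstream factor in cholinergic neurons, had -0.39, 0.17 and 0.047, and -0.60 on replicate 1. Isl1, of striatal projection neurons, had -0.13, 0.47 and -0.17, and 0.026 on replicate 1. Apart from Gsx1, these genes had values on either side of 0 on replicates 2 to 4.

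Among the factors of the diencephalon and eye stood both ends of the forebrain range. Sim1, which specifies neurons of the paraventricular hypothalamus, had -0.91, -1.05 and 0.13, and -0.22 on replicate 1. Replicate 4 lay apart from the other arrays of that dye orientation, and the mean of -0.61 ± 0.64 (SD, n = 3) had an adjusted p of 0.525 in limma. Pou3f4, a POU factor of the hypothalamus and striatum, was positive on every array at 0.32, 0.25 and 0.11, and 0.36 on replicate 1. Its mean of 0.23 ± 0.11 (SD, n = 3) had an adjusted p of 0.632 in limma. Pou3f4 was the sole forebrain factor positive on all of replicates 2 to 4, a pattern that 16.3% of all probes had.

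Nkx2-4, a close relative of Nkx2-1 in the hypothalamus, had -0.45, -0.43 and -0.13, and 0.15 on replicate 1. Lhx9, of thalamic and pioneer neurons, had -0.22, -0.29 and -0.16, and 0.17 on replicate 1. Both were negative on the arrays with null RNA in Cy5 and positive on the array with null RNA in Cy3. Gsx1, Lhx5, Lhx9 and Nkx2-4 were the 4 forebrain factors negative on all of replicates 2 to 4, or 20% against 17.3% of all probes. Otx2, required for the anterior neural plate, had 0.53, -0.41 and 0.071, and -1.19 on replicate 1. Six6, of the eye and hypothalamus, had 0.41, 0.11 and -0.012, and -0.36 on replicate 1. Lhx1, a LIM factor of the head organizer and diencephalon, had -0.52, 0.16 and 0.037, and -0.14 on replicate 1. These last 3 genes had means within 0.17 of 0.

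The Hox genes comprised 21 measured genes of 27 spotted, of which 19 had a value on each of replicates 2 to 4. None reached an unadjusted p under 0.05 in limma, against 9.67% of all probes tested. Of the means, 11 of 19, or 57.9%, were negative against 52.6% of all probes, and the median was -0.037 against -0.016. The means were spread more widely than those of the forebrain factors. The SD of the forebrain means was 0.20, that of the Hox means 0.34 and that of all probes 0.31.

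Among Hox genes, wide values were confined to a single array for Hoxd9, whereas Hoxc8 and Hoxc9 had them on more than a single array. Hoxc8, of the thoracic and brachial levels of the spinal cord, had 1.83, 0.49 and -0.16, and -1.13 on replicate 1. The value on replicate 2 stood at percentile 99.9 of that array and the value on replicate 1 at percentile 1.93. Its mean of 0.72 ± 1.02 (SD, n = 3) was the highest of the family and had an adjusted p of 0.573 in limma. Hoxa10, a posterior gene of lumbar levels, had 0.31, 1.45 and -0.11, and -0.55 on replicate 1. Hoxd9 had 1.22, -0.025 and -0.032, and -0.059 on replicate 1. Without replicate 2 the mean of Hoxd9 turned negative. Hoxc9, the neighbour of Hoxc8 in the Hoxc cluster, had 0.17, -1.06 and -0.64, and 0.13 on replicate 1, and its mean of -0.51 ± 0.62 (SD, n = 3) was the lowest among Hox genes with 3 values.

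The remaining posterior genes, numbered 9 to 13, had means from -0.43 to 0.41. Hoxa13, of the most caudal tissues, had -0.79, -0.0087 and -0.50, and 0.19 on replicate 1. Hoxb13, its paralogue, had -0.32, -0.59 and -0.18, and -0.084 on replicate 1. Both paralogues of group 13 were negative on replicates 2 to 4. Hoxa11 had 0.17, 0.19 and 0.66, and -0.16 on replicate 1, whereas Hoxd11, also of group 11, had 0.41, -0.49 and 0.13, and -0.076 on replicate 1. Hoxd10 had 0.046, 0.83 and 0.35, and 0.19 on replicate 1. Hoxa9 had -0.17, -0.40 and 0.18, and -0.12 on replicate 1. Hoxa11 and Hoxd10 were the Hox genes positive on all of replicates 2 to 4. The antisense transcript of the Hoxa11 locus, Hoxa11os, had 0.03, -0.0043 and -0.48, and -0.22 on replicate 1. Whether the probes separate both strands was not tested.

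Genes of the central groups, numbered 5 to 8, crossed 0 on replicates 2 to 4 in every case measured on all 3 arrays. Hoxa5 had -0.31, 0.76 and 0.33, and -1.05 on replicate 1. Hoxb7 had -0.35, 0.68 and 0.12, and 0.14 on replicate 1, and Hoxb6 had -0.59, 0.76 and -0.61, and -0.21 on replicate 1. Replicate 3 was the highest array for these 3 genes. Hoxb5 had -0.21, 0.15 and -0.046, and -0.076 on replicate 1. Hoxc6 had 0.21, -0.12 and -0.14, and 0.17 on replicate 1. Hoxc5 had no value on replicate 3, with -0.34 and 0.11 on replicates 2 and 4 and -1.42 on replicate 1.

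The anterior genes, of groups 1 to 4, are those used in the hindbrain, nearest to the forebrain. Hoxa2, which reaches furthest forward of the Hox genes, had -0.39, -0.36 and -0.23, and 0.21 on replicate 1. Its mean of -0.33 ± 0.081 (SD, n = 3) had an unadjusted p of 0.06 and an adjusted p of 0.525 in limma. Hoxb3 had -0.30, -0.11 and -0.21, and 0.62 on replicate 1. For Hoxa2 and Hoxb3 replicates 2 to 4 were negative and replicate 1 was positive as deposited. Hoxa3 was negative as well on both arrays of that orientation with a value, at -0.47 and -0.73, but also on replicate 1, at -0.31. Hoxa4 had -0.088, 0.11 and -0.28, and -0.061 on replicate 1, and Hoxd4 had -0.062, 0.37 and -0.81, and -0.19 on replicate 1.

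By position, the 4 anterior Hox genes with 3 values had a median of the mean log2 ratios of -0.19, the 6 central genes 0.065 and the 9 posterior genes 0.017. By cluster the medians were -0.086 for 7 Hoxa genes, -0.15 for 5 Hoxb genes, -0.017 for 3 Hoxc genes and 0.20 for 4 Hoxd genes. These medians are descriptions of few genes.

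**Figure D2:**
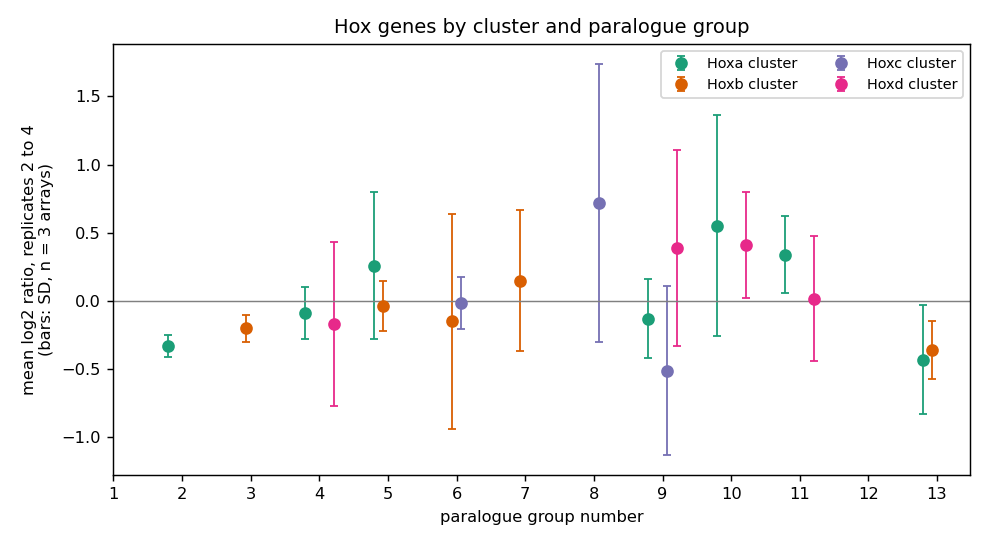
Mean log2 ratio over replicates 2 to 4 (y axis, bars are the SD of 3 arrays) of the 19 Hox genes with 3 values, by paralogue group number (x axis) and cluster (colour). Groups 2 to 4 lie between -0.33 and -0.086, and of these the bars of Hoxa4 and Hoxd4 cross 0.

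Forebrain factors and Hox genes did not differ by more than the spread between arrays. Over replicates 2 to 4 the median of the forebrain list was -0.074 and that of the Hox list -0.037, a difference of -0.037 with an SD between arrays of 0.16 (n = 3). The sign of that difference varied by array. On replicate 2 the median of the forebrain factors was -0.026 and that of the Hox genes -0.17. On replicate 3 the forebrain factors had -0.10 and the Hox genes 0.11. On replicate 4 the forebrain factors had -0.046 and the Hox genes -0.14, and on replicate 1 the forebrain factors had -0.091 and the Hox genes -0.076. The forebrain median was thus above the Hox median on replicates 2 and 4 and below it on replicate 3. On replicate 1 the difference was -0.015 as deposited, a sign that would reverse if that array were turned. Without replicate 3 the difference of medians was 0.081, and without replicate 4 it was -0.12.

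The 5 genes that the definition leaves out include 4 forebrain factors. With Lhx6, Emx1, Pou3f2 and Pou3f3 added, a comparison chosen after the data were seen, the forebrain median was -0.12 over 24 genes and the difference from the Hox median -0.087, within the same spread.

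**Figure D3:**
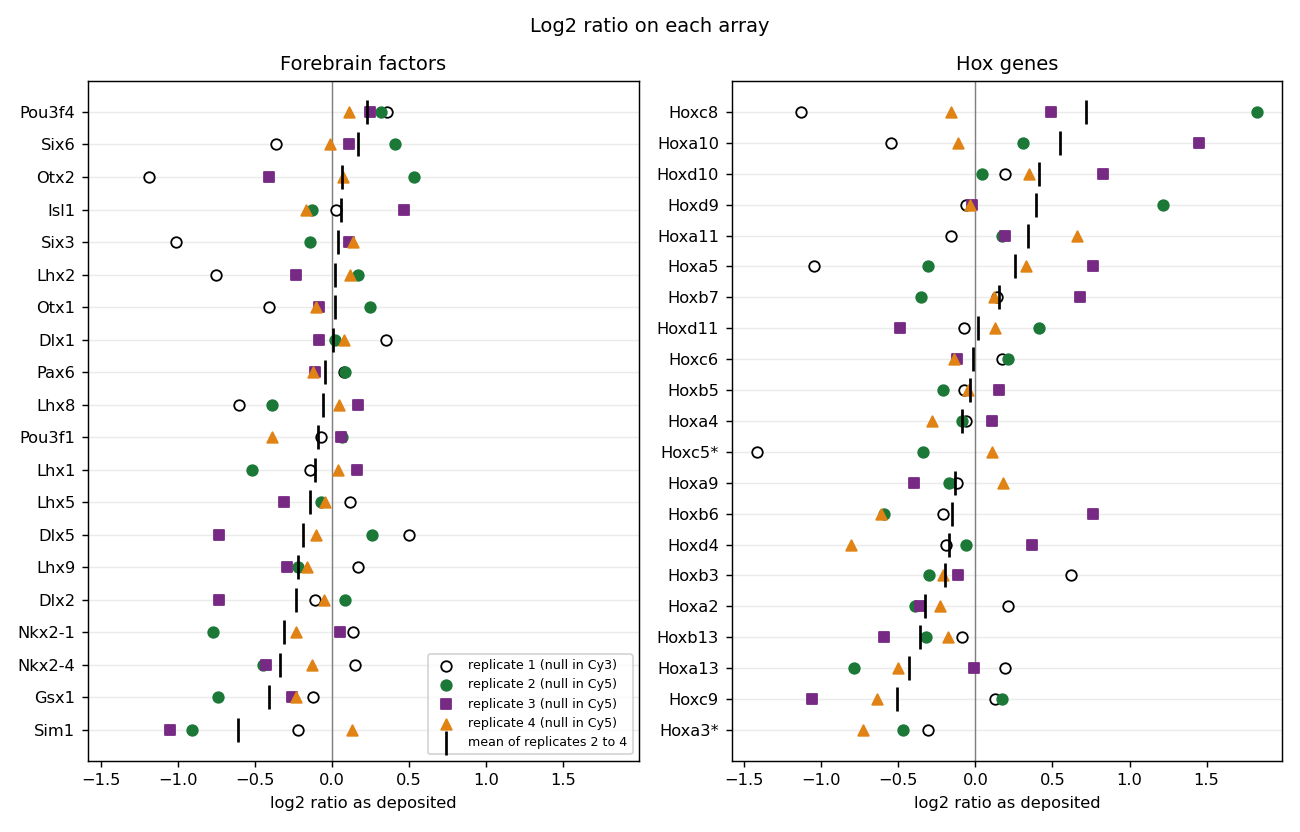
Log2 ratio as deposited (x axis) of each forebrain factor (left) and each Hox gene (right) on replicate 1 (open circles), replicates 2, 3 and 4 (filled symbols) and their mean (bar). Genes are ordered by that mean, and an asterisk marks genes without a value on replicate 3. The forebrain means span -0.61 to 0.23 and the Hox means -0.51 to 0.72.

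The spread of the values over genes on an array was smaller for forebrain factors than for Hox genes by SD on all 4 arrays. On replicate 4 the SD was 0.14 for the forebrain factors, 0.38 for the Hox genes and 0.40 for all probes. On replicate 3 the forebrain factors had 0.37, the Hox genes 0.60 and all probes 0.63. On replicate 2 the SD was 0.41, 0.60 and 0.43 in that order, and on replicate 1 it was 0.45, 0.49 and 0.48. The Hox genes were near the whole table on replicates 1, 3 and 4, whereas the forebrain factors were narrower on replicates 3 and 4.

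Quartiles gave a different order on 2 of the arrays. The interquartile range was 0.59 for forebrain factors and 0.50 for Hox genes on replicate 2, and 0.52 and 0.35 on replicate 1. It was 0.45 for forebrain factors and 0.82 for Hox genes on replicate 3, and 0.21 and 0.39 on replicate 4. Beyond 1 in size lay 2 of 20 forebrain factors and 3 of 21 Hox genes on replicate 1, or 10% and 14.3% against 3.97% of all probes. On replicate 2 it was 0 of 20 forebrain factors and 2 of 21 Hox genes, or 0% and 9.52% against 2.73%. On replicate 3 the shares were 5% and 10.5% against 7.82%, and on replicate 4 both were 0% against 1.7%. These shares rest on few genes. Signal over background is unknown here, so its part in the spread was not tested.

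**Figure D4:**
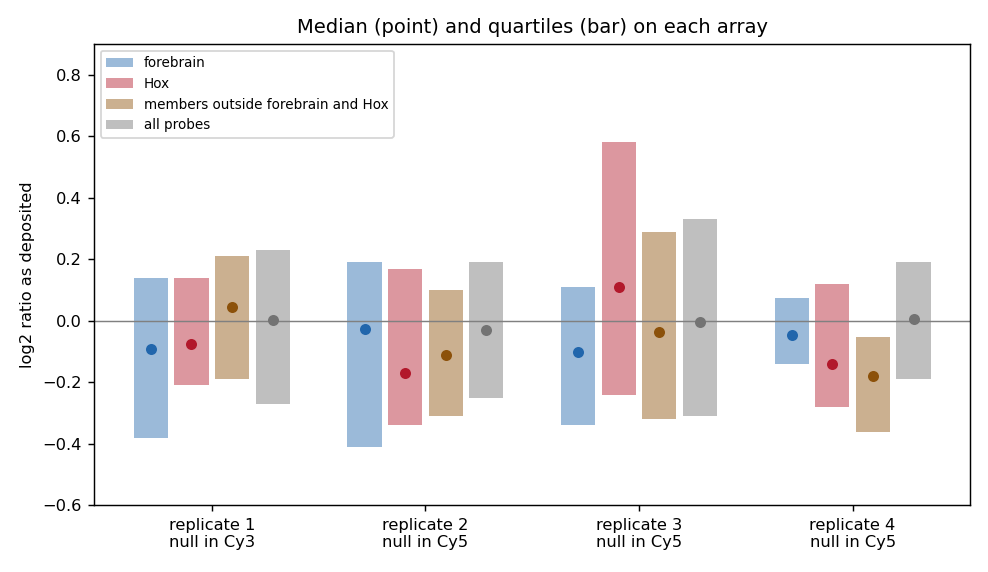
Median (points) and quartiles (bars) of the log2 ratio as deposited (y axis) on each array (x axis) for forebrain factors, Hox genes, the other members and all probes. On replicate 4 the other members have a median of -0.18 and all probes 0.0044.

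The members outside the forebrain and Hox lists held all 5 genes at an unadjusted p under 0.05. They came to 40 of the 79 members tested, so that 12.5% of them had such a p, against 9.67% of all probes.

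TALE factors supplied 2 of the 5. Meis1, a cofactor of Hox and Pbx proteins, had -1.04, -0.38 and -0.38, and 0.15 on replicate 1. Its mean of -0.60 ± 0.38 (SD, n = 3), 1.52-fold in size, had an unadjusted p of 0.0202 and an adjusted p of 0.473 in limma. Pbx2, a broadly expressed partner of Meis and Hox proteins, had -0.48, -0.91 and -0.13, and -0.073 on replicate 1, with a mean of -0.51 ± 0.39 (SD, n = 3) and an adjusted p of 0.492 in limma. Both cofactors were negative on all of replicates 2 to 4, and only Pbx2 was negative on replicate 1 as well. Their relatives were less uniform. Meis2, of striatal and olfactory interneuron lineages, had 0.12, 0.82 and -0.28, and Meis3 had 0.19, -0.43 and 0.051. Pbx3 had -0.61, -0.51 and 0.18. Of the Iroquois factors, which pattern the brain and heart, Irx1 had -0.53, -0.46 and -0.064, while Irx5 had -0.20, 1.78 and -0.076, and -0.81 on replicate 1, with a mean of 0.50 ± 1.11 (SD, n = 3). The value of Irx5 on replicate 3 stood at percentile 99.2 of that array, and without it the mean was negative. The means of the 9 TALE factors ran from -0.60 to 0.50 with a median of -0.065, and 5 were negative.

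Of the POU factors outside the forebrain list, Pou2f3, the master regulator of tuft cells, had the least spread of the 5 genes. It had -0.51, -0.44 and -0.42, and -0.10 on replicate 1, with a mean of -0.46 ± 0.049 (SD, n = 3), an unadjusted p of 0.0168 and an adjusted p of 0.473 in limma. Pou2f2, a factor of B lymphocytes also found in neurons, was the only member with values from 2 probes, and these disagreed. The first had 0.48, 0.29 and 0.43, and -0.38 on replicate 1, with a mean of 0.40 ± 0.10 (SD, n = 3) and an adjusted p of 0.484 in limma. The second had -0.12, -0.92 and 0.17, and -0.05 on replicate 1, with a mean of -0.29 ± 0.57. The positive value of Pou2f2 thus rests on a single probe. Pou5f1, the pluripotency factor Oct4, and Pou6f1, a neural POU factor, had means of 0.11 and -0.093.

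Factors of the dorsoventral axis and of sensory or motor neurons comprised 11 genes with a median of -0.11, of which 7 were negative. Sim2, a paralogue of Sim1, had -0.34, -0.22 and -0.71, and 0.24 on replicate 1. Its mean of -0.42 ± 0.26 (SD, n = 3) had an unadjusted p of 0.0418 and an adjusted p of 0.502 in limma. Sim1 and Sim2 therefore had negative means alike, though Sim1 was positive on replicate 4. Nkx6-2, of ventral progenitors and oligodendrocytes, had a mean of -0.36 and Msx2, a BMP target of dorsal midline and skull mesenchyme, -0.24, both negative on replicates 2 to 4 and positive on replicate 1. Nkx1-2 had the highest mean of this class at 0.27, with 1.49 on replicate 3 and negative values on the other 3 arrays. Pax7, Msx3, Nkx2-2, Nkx2-9, Lhx3, Lhx4 and Pitx3 had means between -0.25 and 0.14.

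The Pax genes of the midbrain and hindbrain, Pax2, Pax5 and Pax8, had negative means of -0.41, -0.18 and -0.066. Pax2, an early gene of the isthmus between both regions, owed its mean to replicate 3, at 0.055, -1.27 and -0.0095, and 0.34 on replicate 1. Pitx1, of the pituitary and hindlimb, was negative on every array with a mean of -0.18, and Six4, of placodes and muscle, had -0.53, 1.02 and -0.44, and 0.72 on replicate 1. The 8 non-neural factors with 3 values had means from -0.27, for Alx4 of the skull and limb mesenchyme, to 0.12, for Nkx2-3 and Six5. Between these lay Nkx2-5 and Nkx2-6 of the heart, Hhex of the liver bud, Dlx4, and Six2 of the kidney. Cdx4, a regulator of Hox genes in the tail bud, had no value on replicate 3, with -0.37 and -0.19 on replicates 2 and 4 and -2.06 on replicate 1, the lowest single value of the family.

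On replicate 4 members lay below the rest of the table. There, 59 of 82 members, or 72%, were negative against 49.3% of all probes, and their median was -0.12 against 0.0044. The members outside the forebrain and Hox lists were negative in 33 of 41 cases with a median of -0.18. On replicate 2 the family's negative share was 58.5% against 54.1% of all probes, on replicate 3 it was 53.2% against 50.3%, and on replicate 1 it was 52.4% against 49.8%. The excess of negative members was thus mainly seen on replicate 4.

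Across members, the arrays were only weakly correlated. Over the family, replicate 2 had a Pearson's r of 0.10 with replicate 3 and 0.16 with replicate 4, where all probes had 0.23 and 0.21. Replicates 3 and 4 had -0.10 over the family and -0.02 over all probes. Replicate 1 as deposited had r of -0.15, -0.21 and -0.23 with replicates 2, 3 and 4 over the family, and 0.0029, 0.071 and -0.10 over all probes. These are descriptions across 79 to 82 probes that share arrays and a control pool.

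Markers of regions beside the neocortex were measured on the same arrays, as probes averaged by gene. Of 10 neocortical markers 7 were measured, with a median of the mean log2 ratios of -0.08, and 6 were negative. All 5 measured thalamic and hypothalamic markers, of 6 listed, were negative with a median of -0.31, and all 4 measured midbrain and hindbrain markers, of 8, with a median of -0.26. Meningeal and skull markers had a median of -0.24, with 4 of 5 negative, and eye and pituitary markers had -0.10, with 2 of 3 negative. All 4 measured midbrain and hindbrain markers, Pax2, Pax5, Pax8 and Hoxa2, are members described above. They therefore add no separate reading, and the other lists share members with the family too. Over all probes tested the median was -0.016, and 52.6% of means were negative. The part of these lists in the family's values was not tested.

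Other genes that act with homeobox factors were described from fixed lists. After averaging by gene, 9.69% of 5529 genes and unnamed probes had an unadjusted p under 0.05 and 0% an adjusted one. Among other homeobox and LIM cofactor genes, 37 of 81 listed were tested, with 22 negative, a median of -0.082, and 3 at an unadjusted p under 0.05. Cux1, a cut homeobox factor of upper cortical layers, had -0.48, -0.71 and -0.27, and 0.02 on replicate 1. Ldb2, a cofactor that joins LIM homeodomain proteins, had 0.56, 0.69 and 0.23, and -0.0031 on replicate 1. Rhox6, a reproductive homeobox gene, had 0.63, 0.69 and 0.12, and -0.84 on replicate 1. All 3 kept a single sign on replicates 2 to 4, and none passed the adjusted threshold, with an adjusted p of 0.461, 0.461 and 0.482 in limma.

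Polycomb and trithorax proteins maintain the repressed and active states of Hox genes. Of 30 listed 19 were tested, of which 13 were negative, and 2 had an unadjusted p under 0.05. Over all genes and unnamed probes the share at such a p was 9.69%. Eed, a core subunit of Polycomb repressive complex PRC2, had 0.74, 0.55 and 0.82, and 0.18 on replicate 1. Its mean of 0.70 ± 0.14 (SD, n = 3) had an unadjusted p of 0.00325 and an adjusted p of 0.428 in limma. Kmt2b, a trithorax methyltransferase, had -0.85, -0.0031 and -0.70, and 0.59 on replicate 1. Eed was positive on every array as deposited.

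In the retinoid pathway, whose signal activates anterior Hox genes, 9 of 21 listed genes were tested and 2 had an unadjusted p under 0.05. The share over all genes and unnamed probes was again 9.69%. Stra6, a vitamin A transporter, had 0.74, 0.21 and 0.52, and -0.49 on replicate 1. The retinoic acid receptor Rarb had -0.59, -0.11 and -0.68, and 0.044 on replicate 1. Of 20 midline and organizer genes tested, 10 were negative and 1 had an unadjusted p under 0.05. This was Foxa2, a floor plate factor, at -0.69, -0.70 and -0.20, and 0.23 on replicate 1. The adjusted p in limma was 0.461 for Stra6 and Foxa2 and 0.491 for Rarb.

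Promoter sequence was compared as a property that the choice of members did not use. RefSeq promoters of build GRCm38.p6, from 250 bases before to 50 bases after a gene's start, were matched to 58 of the 81 genes. The median number of CpG dinucleotides in these 300 bases was 17.5 over the members, 18.5 over 16 forebrain factors and 15 over 11 Hox genes, against 13 over 17492 protein-coding genes. These Hox genes were of the Hoxa and Hoxd clusters alone, since no Hoxb or Hoxc gene was matched. The members' quartiles were 12.2 and 25.8, and those of protein-coding genes were 3.75 and 24. Median GC content was 61% over the members and 56.3% over protein-coding genes. The letters TAATTA, the core bound by many homeodomains and the same on both strands, occurred in 3 member promoters, or 5.17%, and in 4.68% of protein-coding promoters. On either strand, the letters TGACAG, which Meis proteins bind, occurred in 17.2% of member promoters and 18.8% of protein-coding ones. The letters TGATNNAT, bound by Pbx with Hox proteins, occurred on either strand in 5.17% of member promoters and 7.83% of protein-coding ones.

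The 4 promoters below belong to the forebrain factors and the Hox genes with the highest and the lowest mean log2 ratio among those matched. They are shown to set sequence beside the ends of the range of matched genes, and capitals mark each CpG. Hoxc8 and Hoxc9, with the highest and the lowest mean of the Hox genes, had no matched promoter. They lie at chrX:110814129-110814428 on the plus strand for Pou3f4, chr10:50895401-50895700 on the plus strand for Sim1, chr6:52240805-52241104 on the minus strand for Hoxa10 and chr6:52260831-52261130 on the minus strand for Hoxa13.
Pou3f4: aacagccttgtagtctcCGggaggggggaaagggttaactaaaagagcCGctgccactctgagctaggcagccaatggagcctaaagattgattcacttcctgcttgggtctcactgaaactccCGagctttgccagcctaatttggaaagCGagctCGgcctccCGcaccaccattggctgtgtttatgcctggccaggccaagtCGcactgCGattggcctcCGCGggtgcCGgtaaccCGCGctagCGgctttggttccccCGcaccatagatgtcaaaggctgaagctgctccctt
Sim1: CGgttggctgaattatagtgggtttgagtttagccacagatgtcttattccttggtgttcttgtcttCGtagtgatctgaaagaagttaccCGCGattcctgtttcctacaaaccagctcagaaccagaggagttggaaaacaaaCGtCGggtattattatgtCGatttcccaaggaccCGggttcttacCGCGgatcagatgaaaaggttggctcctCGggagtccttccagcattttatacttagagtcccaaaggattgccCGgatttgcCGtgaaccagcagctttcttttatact
Hoxa10: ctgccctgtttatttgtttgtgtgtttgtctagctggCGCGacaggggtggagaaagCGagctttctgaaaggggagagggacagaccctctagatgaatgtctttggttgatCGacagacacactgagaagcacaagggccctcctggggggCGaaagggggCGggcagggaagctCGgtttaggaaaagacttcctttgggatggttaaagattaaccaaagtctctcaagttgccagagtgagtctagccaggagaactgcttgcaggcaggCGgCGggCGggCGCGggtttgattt
Hoxa13: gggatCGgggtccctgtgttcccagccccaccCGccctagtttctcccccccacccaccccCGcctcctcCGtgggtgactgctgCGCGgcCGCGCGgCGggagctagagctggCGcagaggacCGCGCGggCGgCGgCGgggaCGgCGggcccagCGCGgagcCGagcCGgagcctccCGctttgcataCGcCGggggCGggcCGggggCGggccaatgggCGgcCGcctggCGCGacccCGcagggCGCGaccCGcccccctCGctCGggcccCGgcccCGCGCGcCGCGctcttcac
They hold 15, 13, 12 and 45 CpG dinucleotides in that order, and none holds TAATTA. Hoxa10 is listed with 2 starts, of which the first was used. Of these, Hoxa13 was the richest in CpG and Sim1, at 46% GC, the poorest in GC. Both were chosen for the lowest mean of their class among matched genes, -0.43 and -0.61. Their negative sign was thus fixed by the choice and cannot be read against sequence.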

How the data were processed

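The deposited table holds log ratios of the channels of each array, processed by the authors before they were deposited. These deposited values were read as log2 ratios, since their sizes would be implausible as log10, but the base is not stated, nor are the numerator, background correction and normalization. The name of the mutated gene is not reported here. Members and lists were chosen with earlier results of these data known.

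Probes were named from the platform annotation, which gives 1 symbol to 6269 of 6856 probes. The symbols of all 82 member probes matched RefSeq of GRCm38.p6. Mean log2 ratios of replicates 2 to 4 were tested against 0, two-sided, with limma 3.58.1 (lmFit, eBayes; R 4.3.3) over every probe with a value on each array, and p-values were adjusted by Benjamini-Hochberg over all 5720 probes at a threshold of 0.05. These arrays have a single dye orientation, so dye and genotype cannot be told apart, and the single pool leaves out the spread between controls. For arrays, their number limits the precision.

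Forebrain and Hox lists were compared by medians of genes, without a test. Values on every array are given for forebrain and Hox members, for members at an unadjusted p under 0.05 and for the 3 with the largest mean of each sign. Of other lists, up to 4 genes at such a p are named. The other values in the text were added after they were seen, and so was the class of the 2 antisense transcripts. The test was checked on simulated data with known changes. Alternatives were the sign of replicate 1, centring, scaling, missing values, averaging by gene, array weights, the threshold, other lists and leaving out an array.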

Additional observations from a re-analysis of the deposited data

Results flagged for a closer look

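A single array stood far from the other 3 for 9 of the 79 members with values on all 4 arrays, by Dixon's criterion at 95%, applied with replicate 1 as deposited and turned. With replicate 1 as deposited it was 4 members, or 5.06% against 5.33% of 5687 probes, and with replicate 1 turned 7 members, or 8.86% against 4.84%. Under either sign it was 11.4% of members and 8.79% of probes. Chance flags about 1 in 20 genes at each sign. Under both signs this held for Hoxd9, at 1.22 on replicate 2, and for Dlx6os2, at -1.05 on replicate 3. With replicate 1 as deposited it held also for Dlx4, at 0.16 on replicate 3, and Nkx2-6, at 0.42 on replicate 3. With replicate 1 turned it held for Hoxa11 at 0.66 and Pou3f1 at -0.39 on replicate 4, Hoxc6 at 0.21 on replicate 2, Six4 at 1.02 on replicate 3, and Pou2f3 on replicate 1, whose deposited value was -0.10. No explanation of these values was tested.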

How the results depend on the processing

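The count of 0 members past the adjusted threshold of limma held under all 10 alternative fits and at an adjusted p of 0.1. The number of members at an unadjusted p under 0.05, 5 on replicates 2 to 4, was 2 with replicate 1 added as deposited and 16 with array weights, which gave replicate 2 a weight of 2.53, replicate 3 one of 0.478 and replicate 4 one of 0.827. It ranged from 1 without replicate 2 to 8 without replicate 3. The share of all probes at such a p moved alongside, to 18.7% with array weights, where the members had 20.3%, to 4.09% without replicate 2, where the members had 1.27%, and to 9.5% without replicate 3, where the members had 9.76%. The cause was not tested. The difference of medians between forebrain factors and Hox genes, -0.037, ranged from -0.12 to 0.081 when an array was left out. It was -0.13 as a difference of means and 0.012 when a missing value was allowed, so its sign depended on the setting. Under each alternative it stayed within 0.16, the SD between arrays, of its value. That SD comes from the same arrays, so leaving out an array could hardly exceed it. Of the 79 members tested, 32 kept the sign of their mean under every alternative fit and 47 did not, and none passed the adjusted threshold in any. For 34 members the sign changed only with replicate 1 in the fit or an array left out. The share of all probes that changed sign was not counted, so these counts do not set the family apart. Through centring or scaling 1 member changed sign, Six4, at -0.11 with a common MAD. The 8 genes named from outside the family kept their sign under each of 9 alternative fits. They were named for an unadjusted p under 0.05 in the main limma fit, a choice that favours a stable sign. The 5 members at such a p kept their sign as well, so the 8 genes are no measure for the family. No paired analysis was possible because every array holds its null sample against the same pool.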
